A study of Mus musculus with 12 samples.

Results

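The genes described here are 9 genes of iron handling and ferroptosis, namely Tfrc, Slc11a2, Slc40a1, Fth1, Ftl1, Aco1, Ireb2, Gpx4 and Acsl4, taken by gene symbol from 52858 gene rows measured in mouse hearts. All 9 passed the filter on low values that left 15240 genes for testing. RNA was sequenced from 12 heart libraries, 3 in each of 4 groups. C57-non-IR hearts came from C57BL/6J mice and were perfused with buffer outside the body without interruption, and C57-IR hearts, also C57BL/6J, went through no-flow global ischemia followed by reperfusion (IR). The groups Slit2-non-IR and Slit2-IR were handled in the same ways and came from Slit2-Tg mice, which carry a full-length human SLIT2 cDNA behind the CMV promoter, a promoter that is not restricted to heart cells. Per the methods, the transgene was injected into oocytes of a cross of C57 and CBA mice and heterozygous carriers were picked by PCR, and all mice were adult males. Genotype is given by the labels for every library, and the perfusion state by the letters of the sample title, which were matched to the group names of the methods. The labels call the 3 samples of a group independent without saying how, so p-values set differences between groups against the spread between these samples.

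Iron enters cells bound to transferrin, is reduced and carried into the cytosol, and is then used, stored in ferritin or exported. The iron regulatory proteins IRP1 and IRP2 bind a hairpin in messenger RNA, the iron-responsive element, when iron is scarce. A hairpin near the 5′ end then holds back translation, and hairpins in the 3′ untranslated region protect the transcript from decay. Ferroptosis is a form of cell death driven by iron-dependent peroxidation of membrane lipids, and reperfused heart muscle is a tissue in which it has been studied.

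Of the 9 genes, 5 had such a hairpin in a transcript of the GENCODE M21 annotation (GRCm38). The search asked for the loop CAGTGN with an unpaired C before 5 paired bases on its 5′ side, on the transcript strand only, with G-T pairs allowed. The hairpins are shown because their position separates the genes with the decay-linked 3′ form from those with the translation-linked 5′ form. The capitals mark the loop. The 3 hairpins in 5′ untranslated regions, read 5′ to 3′, lay at chr19:9982731-9982760 on the plus strand for Fth1 (4 of 5 annotated transcripts), at chr7:45459779-45459808 on the minus strand for Ftl1 (1 of 2) and at chr1:45925465-45925494 on the minus strand for Slc40a1 (1 of 4).
Fth1: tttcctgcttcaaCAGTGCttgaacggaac
Ftl1: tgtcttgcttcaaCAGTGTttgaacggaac
Slc40a1: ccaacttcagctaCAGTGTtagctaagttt

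The 3′ untranslated region of Tfrc held 4 hairpins (sites a to d) on the plus strand of chromosome 16, at chr16:32631218-32631247, chr16:32631597-32631626, chr16:32631662-32631691 and chr16:32631709-32631738 (1 of 2 transcripts with such a region). That of Slc11a2 held 1 on the minus strand, at chr15:100395153-100395182 (1 of 3 transcripts), which matched only when 1 unpaired base was allowed on the 3′ side of the stem.
Tfrc site a: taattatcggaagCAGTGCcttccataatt
Tfrc site b: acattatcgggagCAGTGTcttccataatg
Tfrc site c: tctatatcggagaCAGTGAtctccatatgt
Tfrc site d: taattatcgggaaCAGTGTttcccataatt
Slc11a2: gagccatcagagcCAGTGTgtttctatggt

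The pattern was rare in the annotated untranslated regions of protein-coding transcripts, the only sequence searched. It stood in the 5′ untranslated region of 30 of 20899 genes (0.144%) and in the 3′ untranslated region of 127 of 21028 genes (0.604%), or of 77 (0.368%) and 352 genes (1.67%) with the extra unpaired base allowed. A match is a sequence pattern and not a measured binding site. The deposited values are per gene, so the Slc11a2 transcripts with and without the hairpin cannot be told apart.

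Levels are given as FPKM, which counts sequenced fragments per gene, divided by gene length and by a scale factor of the library. It can therefore be set side by side between genes. Fth1 was by far the highest of the 9, with a mean of 1520 FPKM over the 12 libraries and rank 31 of all gene rows. Gpx4 followed at 294 and Ftl1 at 120 FPKM, and the ranges of these genes did not overlap. Tfrc (9.26 FPKM) and Aco1 (8.72) overlapped, and Tfrc was above Aco1 in 3 of 12 libraries even though its mean was higher. Slc11a2 (4.41) lay below Aco1 without overlap. Slc11a2 overlapped in range with Ireb2 (3.65), and Ireb2 with Acsl4 (2.85), but these 3 genes kept this order within each of the 12 libraries. Slc40a1 was lowest, at a mean of 2.42 FPKM, and was below Acsl4 in 10 of 12 libraries. The fewest reads on any of these genes in a library were 225, for Acsl4. In whole tissue, fewer cells of a type and less RNA per cell cannot be told apart.

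The genes also differed in how steady they were. The coefficient of variation over the 12 libraries was 7.81% for Fth1, 9.31% for Ireb2, 10.1% for Gpx4, 10.9% for Acsl4, 11.9% for Aco1 and 12.1% for Slc11a2, all below the median of 14.6% over 11192 tested genes with a mean of at least 1 FPKM. It was 21.7% for Ftl1 and 26.0% for Slc40a1. Tfrc stood apart with 88.7%, higher than 99.1% of those genes, and its highest library exceeded its lowest 11.9-fold.

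**Figure D1:**
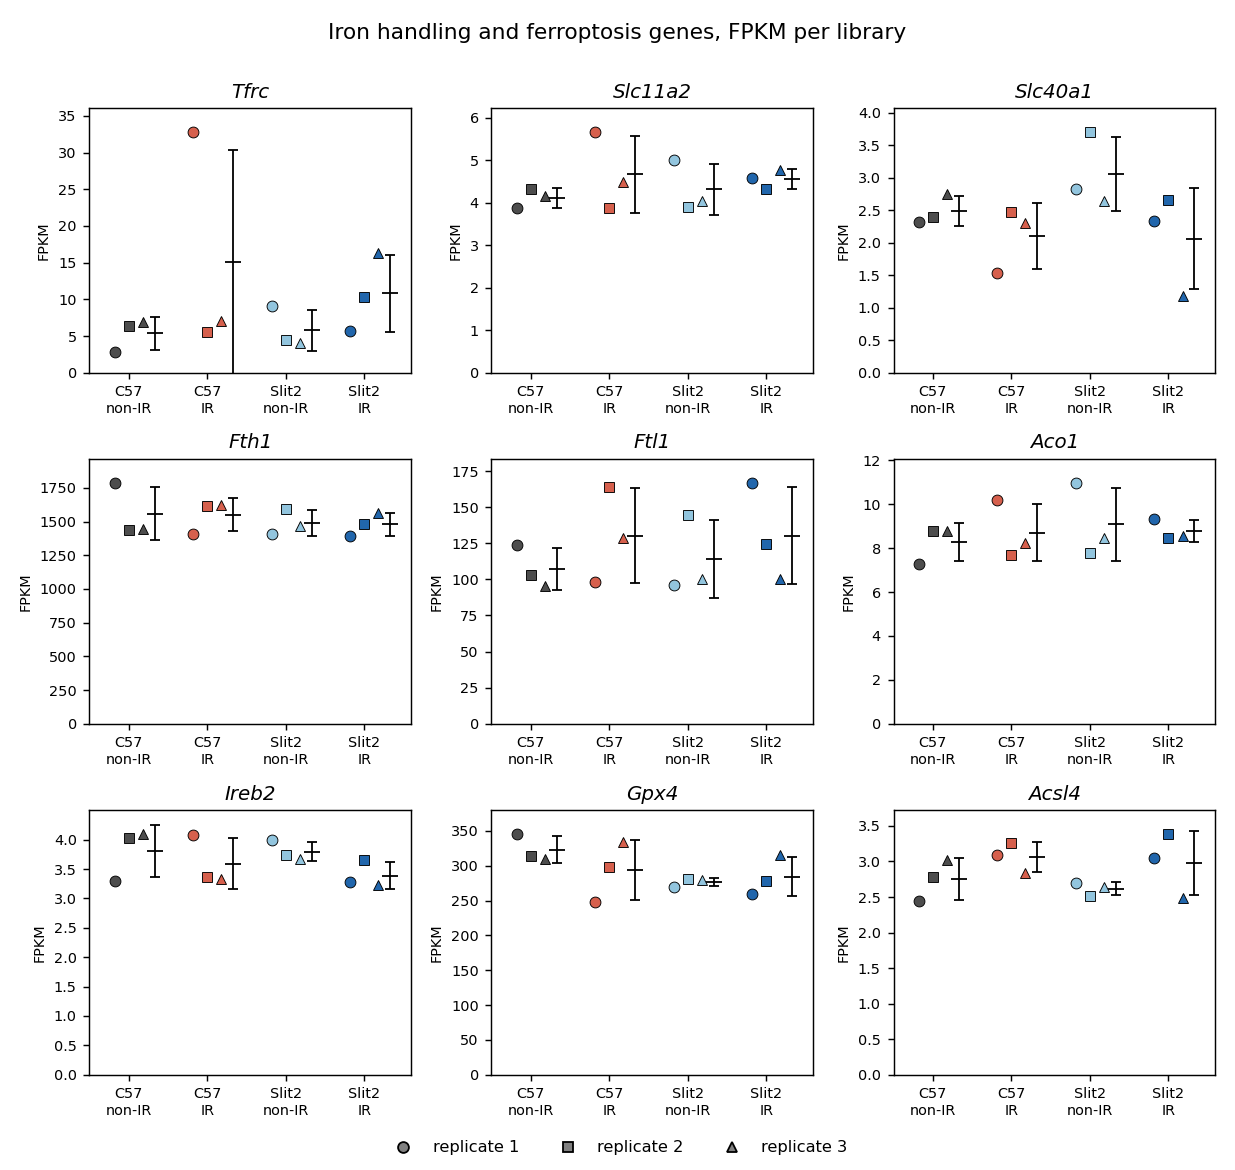
FPKM of each gene in every library (points, shaped by replicate number and coloured by group) with the mean and SD of 3 libraries beside them (bars that reach below 0 are cut at 0). Tfrc in C57-IR replicate 1 reached 32.8 FPKM and every other library lay between 2.76 and 16.3, whereas Fth1 stayed between 1392 and 1784.

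Tfrc encodes transferrin receptor 1, which takes up iron-loaded transferrin (ENSMUSG00000022797, chromosome 16 from 32608920 to 32632794). Its FPKM was 2.76, 6.41 and 6.93 in C57-non-IR hearts (replicates 1, 2 and 3, the order used throughout), 32.8, 5.48 and 6.9999 in C57-IR hearts, 9.03, 4.39 and 3.99 in Slit2-non-IR hearts and 5.74, 10.4 and 16.3 in Slit2-IR hearts. A single C57-IR library was high, its group mates lay within the range of the non-IR hearts, and Slit2-IR and Slit2-non-IR hearts overlapped through replicate 1 of each. Averaged over both genotypes, the difference of IR from non-IR hearts (the mean IR difference) was 0.88 on the log2(FPKM + 1) scale (standard error 0.41, 95% interval -0.03 to 1.79), with a limma unadjusted p of 0.0565 and a Benjamini-Hochberg adjusted p of 0.336. Within C57BL/6J it was 0.99 (interval -0.29 to 2.28, limma adjusted p = 0.737) and within Slit2-Tg 0.77 (interval -0.52 to 2.05, limma adjusted p = 0.708). Without C57-IR replicate 1 the C57BL/6J difference was 0.25 and the mean IR difference 0.51, with limma adjusted p-values of 0.925 and 0.415. Read counts tested with limma-voom gave a mean IR difference of 0.99 with an unadjusted p of 0.0427 and an adjusted p of 0.288.

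Other measures of the library with high Tfrc are given here because Tfrc is abundant in red cell precursors and in other non-muscle cells. The summed FPKM of 9 red blood cell markers, of which 3 were above 0 in all libraries, was 1.496 in C57-IR replicate 1, the lowest of the 12 libraries. Its summed FPKM of 13 macrophage markers was also the lowest, at 152 against up to 339 elsewhere. Its 8 neutrophil markers, of which 2 were above 0 in all libraries, summed to 4.31 FPKM. This was the highest value, with a next highest of 3.79 and a lowest of 0.863. Its cardiomyocyte markers summed to 31070 FPKM, below only the 33291 of C57-non-IR replicate 1, with a lowest of 25543. Endothelial markers summed to 269.6 FPKM there against 444 and 472 in the other C57-IR libraries, and fibroblast markers to 622 against 1014 and 1026. Low sums also occurred in replicate 1 of other groups. Endothelial markers summed to 260 in Slit2-non-IR replicate 1 and 275 in Slit2-IR replicate 1, but to 413 in C57-non-IR replicate 1. Fibroblast markers summed to 614 in C57-non-IR replicate 1, where Tfrc was lowest, 697 in Slit2-non-IR replicate 1 and 1063 in Slit2-IR replicate 1. Macrophage markers were lowest in replicate 1 of every group (189, 152, 212 and 182 FPKM). The part of these cell types in the Tfrc value was not tested.

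Slc11a2 encodes DMT1, which carries ferrous iron across membranes, including out of the endosomes that transferrin receptor 1 enters (ENSMUSG00000023030, chromosome 15 from 100387898 to 100425072). Its FPKM was 3.87, 4.33 and 4.15 in C57-non-IR, 5.65, 3.88 and 4.48 in C57-IR, 5.01, 3.90 and 4.03 in Slit2-non-IR and 4.57, 4.31 and 4.77 in Slit2-IR hearts. All 4 groups overlapped, and the highest value came from the library in which Tfrc was highest. For Slc11a2 the mean IR difference was 0.10 (95% interval -0.09 to 0.29, limma adjusted p = 0.653). It was 0.043 without C57-IR replicate 1 and 0.029 with values scaled to reads outside the mitochondrial genome.

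Slc40a1 encodes ferroportin, the exporter of cellular iron (ENSMUSG00000025993, chromosome 1 from 45908068 to 45926523). Its FPKM was 2.32, 2.39 and 2.74 in C57-non-IR, 1.53, 2.47 and 2.30 in C57-IR, 2.82, 3.69 and 2.63 in Slit2-non-IR and 2.33, 2.66 and 1.18 in Slit2-IR hearts. The lowest values were both in IR libraries, and IR and non-IR hearts overlapped in each genotype. Of the 9 genes it had the smallest p-values in limma's test for the mean IR effect and for IR in Slit2-Tg hearts. The mean IR difference was -0.31 (standard error 0.14, 95% interval -0.60 to -0.01), with a limma unadjusted p of 0.0452 and an adjusted p of 0.300. In Slit2-Tg hearts it was -0.43 (standard error 0.19, interval -0.85 to -0.01, limma unadjusted p = 0.0453, adjusted p = 0.425) and in C57BL/6J hearts -0.18 (interval -0.60 to 0.24, limma adjusted p = 0.934). Leaving out Slit2-IR replicate 3 reduced the Slit2-Tg difference to -0.21 and the mean IR difference to -0.19. On read counts with limma-voom the mean IR difference was -0.44 (standard error 0.19, unadjusted p = 0.0372, adjusted p = 0.269). For Slit2-Tg hearts limma-voom gave -0.63 (standard error 0.26, unadjusted p = 0.0336, adjusted p = 0.364).

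Fth1 encodes the heavy subunit of ferritin, the iron storage shell, and oxidizes iron on entry (ENSMUSG00000024661, chromosome 19 from 9982703 to 9985092). Its FPKM was 1784, 1441 and 1446 in C57-non-IR, 1411, 1619 and 1625 in C57-IR, 1410, 1596 and 1467 in Slit2-non-IR and 1392, 1481 and 1566 in Slit2-IR hearts. The groups overlapped almost entirely. The mean IR difference was -0.01 (95% interval -0.20 to 0.19, limma adjusted p = 0.985), while Slit2-Tg hearts differed from C57BL/6J hearts by -0.06 on average (interval -0.26 to 0.13, limma adjusted p = 0.999). Leaving out any of 4 single libraries turned the sign of the IR difference, up to 0.045.

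Ftl1 encodes the light ferritin subunit, in which the iron core forms (ENSMUSG00000050708, chromosome 7 from 45457944 to 45459884). Its FPKM was 124, 103 and 95.4 in C57-non-IR, 98.2, 164 and 129 in C57-IR, 96.4, 145 and 100.2 in Slit2-non-IR and 167, 124 and 100.3 in Slit2-IR hearts. All 4 groups overlapped, with values above and below the overall mean of 120 in each, and the mean IR difference was 0.22 (95% interval -0.14 to 0.58, limma adjusted p = 0.596). It was 0.13 without either Slit2-IR replicate 1 or C57-IR replicate 2, the libraries with the highest Ftl1 and the highest sums of atrial markers (1784 and 256 FPKM), and the part of atrial tissue was not tested. Ftl1-ps1, a near-identical copy, had 2.25 to 5.26 FPKM, while Fth-ps2 had 8 reads over all libraries and Ftl1-ps2 and Fth-ps3 had 0, so reads shared with copies leave the ferritin values uncertain.

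The ratio of Fth1 to Ftl1 FPKM was 14.5 ± 0.591 in C57-non-IR, 12.3 ± 2.27 in C57-IR, 13.4 ± 2.09 in Slit2-non-IR and, for Slit2-IR hearts, 11.96 ± 3.63 (SD, n = 3). It ran from 8.36 in Slit2-IR replicate 1 to 15.6 in replicate 3 of the same group. The next lowest ratio was 9.86 in C57-IR replicate 2, so the lowest ratios were in the libraries with the highest atrial marker sums, and the part of atrial tissue in them was not tested. IR hearts differed from non-IR hearts of their genotype by -1.85 on average (two-sided exact permutation test over 400 relabelings, p = 0.205, Benjamini-Hochberg value 0.512 over 5 comparisons). The C57BL/6J comparison gave p = 0.2 in the exact permutation test, where 3 libraries against 3 cannot go below 0.1.

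Aco1 encodes IRP1, which is cytosolic aconitase when it holds an iron-sulfur cluster and binds iron-responsive elements when it does not (ENSMUSG00000028405, chromosome 4 from 40143081 to 40198338). Its FPKM was 7.30, 8.79 and 8.80 in C57-non-IR, 10.2, 7.71 and 8.22 in C57-IR, 10.96, 7.80 and 8.49 in Slit2-non-IR and 9.35, 8.44 and 8.55 in Slit2-IR hearts. Replicate 1 held the highest value in 3 groups and the lowest in C57-non-IR hearts. Its mean IR difference was 0.01 (95% interval -0.20 to 0.22, limma adjusted p = 0.971) and turned to -0.07 when values were scaled to reads outside the mitochondrial genome.

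Ireb2 encodes IRP2, the regulatory protein that is degraded when iron is plentiful (ENSMUSG00000032293, chromosome 9 from 54863789 to 54912530). Its FPKM was 3.30, 4.03 and 4.09 in C57-non-IR, 4.09, 3.37 and 3.32 in C57-IR, 3.99, 3.74 and 3.66 in Slit2-non-IR and 3.28, 3.65 and 3.23 in Slit2-IR hearts. In Slit2-Tg hearts every IR value lay just below every non-IR value, and in C57BL/6J hearts the groups overlapped. The difference was -0.13 in Slit2-Tg hearts (95% interval -0.35 to 0.09, limma adjusted p = 0.715) and -0.10 as the mean over both genotypes (interval -0.25 to 0.06, limma adjusted p = 0.588).

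Gpx4 encodes the glutathione peroxidase that reduces lipid hydroperoxides in membranes and is the main brake on ferroptosis (ENSMUSG00000075706, chromosome 10 from 80047166 to 80056439). Its FPKM was 345, 314 and 310 in C57-non-IR, 248, 299 and 334 in C57-IR, 270, 281 and 279 in Slit2-non-IR and 260, 278 and 315 in Slit2-IR hearts. Every Slit2-non-IR value lay below every C57-non-IR value, and the IR groups overlapped with each other and with both. The difference of Slit2-non-IR from C57-non-IR hearts was -0.22 (standard error 0.12, 95% interval -0.49 to 0.04), with a limma unadjusted p of 0.0906 and an adjusted p of 0.9995. After IR, averaged over genotypes, Gpx4 differed by -0.06 (interval -0.24 to 0.13, limma adjusted p = 0.847), and by 0.0027 without C57-IR replicate 1.

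Acsl4 encodes the acyl-CoA synthetase that loads polyunsaturated fatty acids for membrane lipids and so supplies the substrate of lipid peroxidation (ENSMUSG00000031278, chromosome X from 142317993 to 142390535). Its FPKM was 2.44, 2.79 and 3.03 in C57-non-IR, 3.08, 3.26 and 2.84 in C57-IR, 2.69, 2.52 and 2.64 in Slit2-non-IR and 3.04, 3.38 and 2.49 in Slit2-IR hearts. IR values were mostly higher, and 1 library of each genotype kept the groups overlapping. For Acsl4 the mean IR difference was 0.12 (95% interval -0.04 to 0.28, limma unadjusted p = 0.118, adjusted p = 0.468).

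Across the 9 genes, the mean IR effect passed an adjusted p of 0.05 in limma for 0, where 3.49% of all tested genes did (532 genes, of which 2.34% of those tested were higher and 1.15% lower after IR). With values scaled to reads outside the mitochondrial genome those directions were 277 higher and 305 lower in place of 356 and 176, and the median of all genes moved from 0.004 to -0.05. At an unadjusted p under 0.05 there was 1 of the 9, Slc40a1, against 15.9% of all genes, and limma-voom had 2, Slc40a1 and Tfrc, with 0 past the adjusted threshold. The median difference of the 9 genes was 0.01, with 5 higher and 4 lower, beside a median of 0.004 for all genes. The 95% intervals reached a median of 0.20 to either side of the estimate and 0.91 for Tfrc. This is the precision on the log2(FPKM + 1) scale, which understates both the change and the interval of low genes.

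Within C57BL/6J hearts, 0 of the 9 genes passed the adjusted threshold between C57-IR and C57-non-IR in limma (0.459% of all genes) and 0 had an unadjusted p under 0.05 (8.96%). Within Slit2-Tg hearts 0 passed in Slit2-IR against Slit2-non-IR (0.525%) and 1, Slc40a1, had an unadjusted p under 0.05 (11.2%). The libraries of the groups did not overlap for 0 of 9 genes in C57BL/6J (13.8% of all genes) and for 1, Ireb2, in Slit2-Tg hearts (16.9%). limma-voom gave 0 genes past the adjusted threshold in both genotypes and 0 and 1 at an unadjusted p under 0.05.

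Between genotypes, 0 of the 9 genes passed the adjusted threshold in limma without IR (Slit2-non-IR against C57-non-IR, 0.0394% of all genes), with IR (Slit2-IR against C57-IR, 0.0459%) or for the mean Slit2-Tg difference (0.131%). At an unadjusted p under 0.05 there were 0 in each, where 3.19%, 3.16% and 4.13% of all genes lay, and limma-voom likewise had 0 under both rules. Groups did not overlap for 1 gene, Gpx4, without IR (9.20% of all genes) and for 0 after IR (6.47%). The mean Slit2-Tg differences of the 9 genes ran from -0.13 for Gpx4 to 0.09 for Slc40a1, both with 95% intervals that included 0. Whether the response to IR differed between genotypes was tested as an interaction, which passed the adjusted threshold in limma for 0 of the 9 (0.00% of all genes) and had an unadjusted p under 0.05 for 0 (1.86%), as in limma-voom. The interaction of Slc40a1 was -0.25 (interval -0.85 to 0.34) and that of Gpx4 0.18 (interval -0.19 to 0.56), so neither was shown to respond differently. Over the alternative settings they ran from -0.40 to -0.026 and from 0.067 to 0.28.

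**Figure D2:**
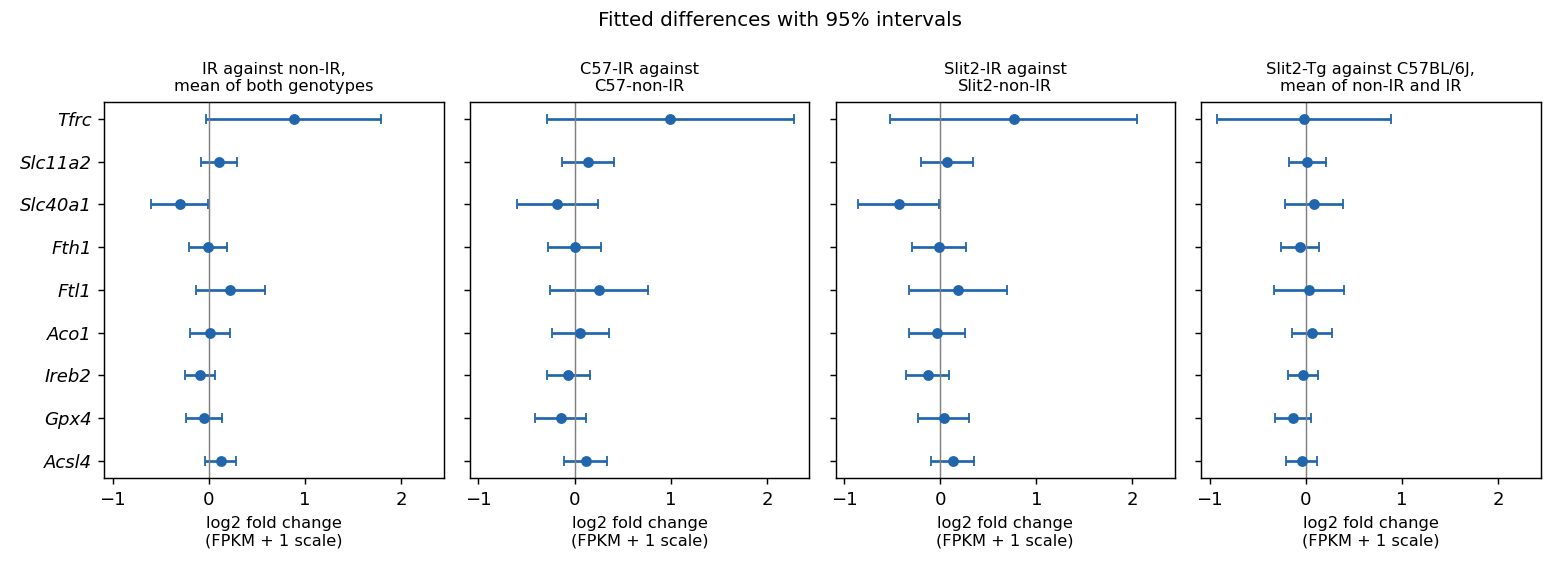
Fitted log2 fold changes (points) with 95% intervals (bars) for the 9 genes in 4 comparisons, on the log2(FPKM + 1) scale with the line at 0 marking no difference. Tfrc has the widest intervals and a mean IR difference of 0.88, and the interval of Slc40a1 lies just below 0 for the mean IR difference and for Slit2-Tg hearts.

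Some of the genes moved together from library to library. Over the 12 libraries, log2(FPKM + 1) of Tfrc and Slc11a2 had a Pearson r of 0.876 and a Spearman rho of 0.825 (permutation p = 0.00043 and p = 0.00145). Slc11a2 and Aco1 had r of 0.836 and rho of 0.825 (permutation p = 0.00071 and p = 0.00138). Fth1 and Aco1 were opposed, with r of -0.833 and rho of -0.930 (permutation p = 0.00078 and p = 2e-05). These were the 3 of 36 pairs with Benjamini-Hochberg values under 0.05 for both measures, which were 0.00936 for r in each pair and at most 0.0174 for rho.

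Without the 2 libraries farthest from the median of the first gene, r was 0.695 for Tfrc and Slc11a2, 0.705 for Slc11a2 and Aco1 and -0.809 for Fth1 and Aco1. With the 4 group means removed r was 0.860, 0.899 and -0.840, and with the replicate number removed as well 0.923, 0.860 and -0.898, so each relation was present within groups. Slc11a2 and Aco1 were both highest in the replicate 1 libraries of C57-IR and Slit2-non-IR hearts, and both were lowest in C57-non-IR replicate 1. Same-numbered libraries of the Slit2-Tg groups, and of the IR groups, also deviated together over all genes, so the 12 values are not fully independent and the p-values may be too small.

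**Figure D3:**
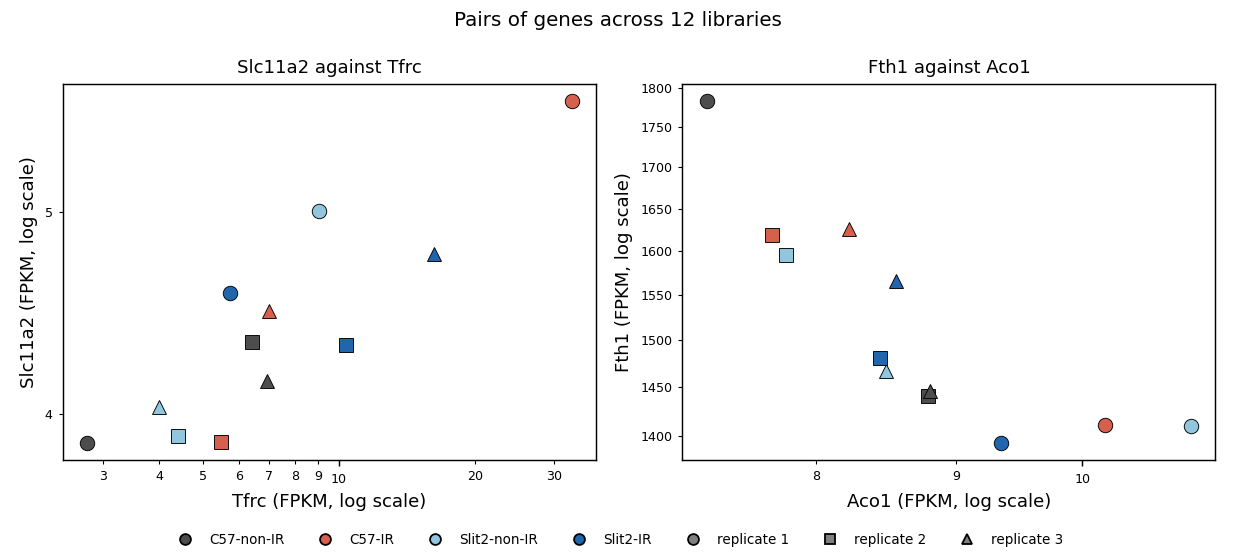
Slc11a2 against Tfrc (left) and Fth1 against Aco1 (right), in FPKM on log axes, with 1 point per library coloured by group and shaped by replicate number. Slc11a2 rises with Tfrc (r of 0.876 on the log2 scale) and Fth1 falls with Aco1 (r of -0.833).

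Among 11191 other tested genes with a mean of at least 1 FPKM, the genes whose pattern over the 12 libraries was most like that of Tfrc were Map3k7 (r of 0.913), Clcn4 (0.879) and Slc11a2 (0.876). The closest gene was also Map3k7 for Slc11a2 (0.933), Atpaf1 for Aco1 (0.961), Lrrc39 for Ireb2 (0.949) and Hist1h4h for Fth1 (0.945). For Ftl1 it was Cdo1 (0.921), for Acsl4 3110001I22Rik (0.911), for Gpx4 Ifi35 (0.894) and for Slc40a1 Pias1 (0.841). These values describe likeness over the same libraries, and no test is attached to them.

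The other genes of the pathway were described through 7 lists with 108 genes, of which 107 were in the files and 95 were tested. For the mean IR effect 3 of the 95 had an adjusted p under 0.05 in limma's test, all higher after IR, which is 3.16% beside the 3.49% of all genes. At an unadjusted p under 0.05 there were 21 (22.1%), 16 higher and 5 lower, beside 15.9% of all genes, 1208 higher and 1214 lower. By list, 2 of 20 tested genes of the lipid arm and other regulators of ferroptosis rose (Sat1 and Ptgs2) and 1 of 7 systemic iron signals rose (Bmp2). None passed among 13 genes of iron uptake and transport, 7 of iron chaperones and of ferritin and IRP turnover, 16 of heme metabolism, 20 of mitochondrial iron and iron-sulfur clusters or 12 of the glutathione and cystine arm, where 1, 2, 3, 1 and 5 genes had an unadjusted p under 0.05. Slc7a11 and Ggt1, also listed in the glutathione and cystine arm, did not pass the filter on low values and were not tested.

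Sat1, the polyamine acetyltransferase, was measured at 17.1, 14.8 and 15.1 FPKM in C57-non-IR, 33.2, 65.2 and 38.4 in C57-IR, 10.7, 24.1 and 16.4 in Slit2-non-IR and 33.8, 54.0 and 38.1 in Slit2-IR hearts. All 6 IR values exceeded all 6 non-IR values, and the mean IR difference was 1.36 (standard error 0.21, limma adjusted p = 0.00523). Ptgs2, which encodes the cyclooxygenase COX-2 and is often read as a marker of ferroptosis as well as of inflammation, rose from 2.75 ± 1.13 to 10.3 ± 4.25 FPKM in C57BL/6J and from 3.70 ± 2.27 to 11.6 ± 3.66 in Slit2-Tg hearts (SD, n = 3). Its mean IR difference was 1.52 (standard error 0.27, limma adjusted p = 0.0104). Bmp2, a ligand that induces hepcidin in the liver, rose from 1.14 ± 0.290 to 3.43 ± 1.06 FPKM and from 1.22 ± 0.227 to 4.98 ± 2.31 in the same groups, a mean IR difference of 1.20 (standard error 0.18, limma adjusted p = 0.00443). All 3 kept an adjusted p under 0.05 when any single library was left out.

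Within Slit2-Tg hearts 2 genes of the lists had an adjusted p under 0.05 in limma's test, Bmp2 (1.36, adjusted p = 0.0428) and Trp53, which encodes the p53 tumour suppressor (0.58, standard error 0.11, adjusted p = 0.0499), which is 2.11% of the 95 beside 0.525% of all genes. In C57BL/6J hearts 0 did in limma's test, with 13 (13.7%) at an unadjusted p under 0.05 beside 8.96% of all genes. Trp53 was at 2.96, 2.35 and 2.77 FPKM in C57-non-IR, 2.76, 2.56 and 2.49 in C57-IR, 2.19, 1.82 and 2.48 in Slit2-non-IR and 3.63, 3.33 and 4.24 in Slit2-IR hearts. Its Slit2-IR values lay above those of the other 3 groups. The Bmp2 call was lost without any library other than C57-IR replicates 1 and 2 and Slit2-IR replicate 3, with an adjusted p of up to 0.157, and also with no filter beyond 1 read (0.121) and in only the 6 libraries compared (0.1004). The Trp53 call was lost without any library other than C57-IR replicates 1 and 2, with an adjusted p of up to 0.181, and also with no filter beyond 1 read (0.120), with values scaled to reads outside the mitochondrial genome (0.0891) and in only the 6 libraries compared (0.128). Bmp2 in Slit2-IR replicate 1 was 7.52 FPKM, and without that library its difference was 1.07. The next highest Bmp2 value was 4.65 FPKM in C57-IR replicate 2, and these 2 libraries had the highest atrial marker sums (1784 and 256 FPKM). Slit2-IR replicate 2, with an atrial sum of 119 FPKM, had 4.42 FPKM of Bmp2, and the part of atrial tissue was not tested.

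Hmox1, which encodes the heme oxygenase that frees iron from heme, was at 4.46, 7.01 and 5.58 FPKM in C57-non-IR, 16.4, 48.6 and 27.0 in C57-IR, 3.96, 37.0 and 7.51 in Slit2-non-IR and 30.02, 35.4 and 14.5 in Slit2-IR hearts. The C57BL/6J groups did not overlap, and Slit2-non-IR replicate 2 lay among the IR values. Hmox1 had a mean IR difference of 1.64 (standard error 0.45), which missed the adjusted threshold in limma (unadjusted p = 0.00405, adjusted p = 0.0801). Slit2-non-IR replicate 2 also had the highest sum of red blood cell markers, 49.2 FPKM against 1.496 to 16.3 in the other libraries, and the part of residual blood in its Hmox1 value was not tested.

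The remaining genes named from the lists did not pass the adjusted threshold for the mean IR effect in limma's test. Differences of 0.36 for Hif1a (adjusted p = 0.0701) and -0.20 for Epas1 (0.189) were measured for the hypoxia-inducible factors. In the cystine and glutathione arm Slc3a2, a subunit of the cystine importer, differed by 0.45 (0.123) and Gclc, which starts glutathione synthesis, by 0.28 (0.133). Trp53 as the mean over both genotypes differed by 0.27 (0.0892), the heme exporter Mfsd7b by 0.19 (0.0912) and Smad1, a mediator of BMP signals, by 0.28 (0.193). Lrp1, a receptor for heme-hemopexin, differed by 0.30 (0.231), the ferrireductase Steap4 by 0.28 (0.516), the cysteine desulfurase Nfs1 by 0.14 (0.313) and the mitochondrial iron carrier Slc25a37 by -0.13 (0.404).

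**Figure D4:**
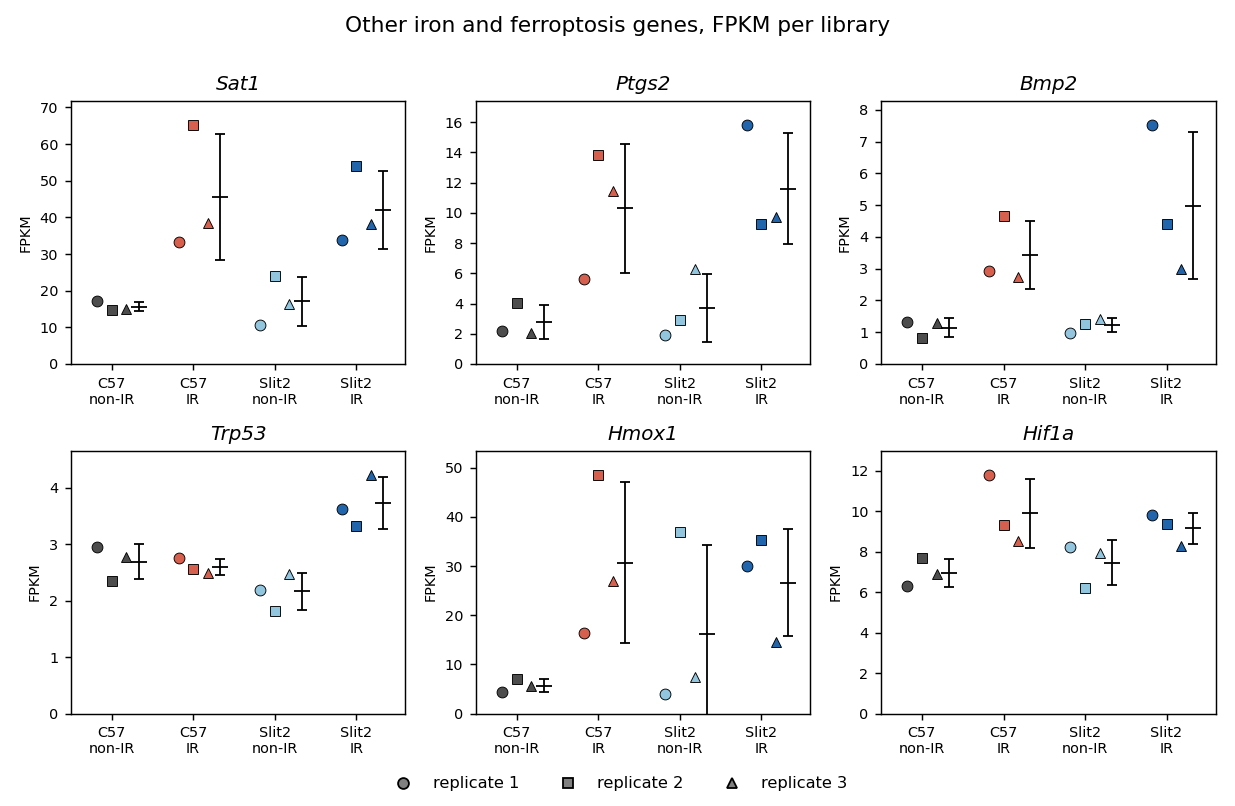
FPKM of 6 other genes of iron handling and ferroptosis in every library (points, shaped by replicate number and coloured by group), with mean and SD of 3 libraries beside them (bars below 0 are cut at 0). Sat1, Ptgs2 and Bmp2 rose after IR, Trp53 was highest in the 3 Slit2-IR libraries, and Hmox1 was at 37.0 in Slit2-non-IR replicate 2.

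Depth was alike across libraries, with 16601154 to 24841291 reads on genes. Mitochondrial genes held 23.9% to 26.0% of them in C57BL/6J libraries and 19.7% to 23.8% in Slit2-Tg libraries, so this share did not overlap between genotypes. Replicates spread more widely than read sampling alone would give, at a chi-square per gene of 8.67 to 54.6. In each group the pairs with replicate 1 were the highest, at 36.0 to 54.6, and replicate 2 against 3 gave 8.67 to 39.7. The heart's cardiomyocyte markers were present at 25543 to 33291 FPKM in sum, and atrial markers were at 1784 FPKM in Slit2-IR replicate 1 against 38.2 to 256 elsewhere. The mouse Slit2 row read 0.180 to 0.282 FPKM in C57BL/6J and 0.0847 to 0.813 in Slit2-Tg hearts, and because the transgene is human this row is no check of it.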

How the data were processed

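The 12 libraries were prepared from total heart RNA with a NEBNext Ultra kit. The authors deposited FPKM values, 1 per gene and library, beside Ensembl gene IDs and positions on GRCm38. The submitters' processing notes name HISAT2 and mm10, whereas how reads were counted, on which annotation and with what strand setting is not given in the sources used here. Overlapping, antisense and duplicated genes are therefore uncertain. FPKM times gene length came in whole steps (100% of values within 0.01 of a whole read), so reads were recovered and gave the depth. The size of a step times the library's size factor was constant (relative spread 4.0e-11). That factor is the median ratio of a library's reads per gene to their geometric mean over libraries. The FPKM were thus scaled by such factors and not by total reads. There were 0 per-library columns left unused.

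Tests used limma 3.58.1 in R 4.3.3 with a variance trend on log2(FPKM + 1), all 12 libraries and 4 groups in one fit without covariates, and Benjamini-Hochberg adjustment over the 15240 genes of a contrast at a threshold of 0.05. A gene was tested when 3 or more libraries held what would be 10 reads in the median library and its reads summed to 15 or more. This scale understates the change of low genes. Correlations used 100000 permutations and ratios exact permutation tests. Same-numbered libraries deviated together (every pair over 0.1) between the Slit2-Tg groups (0.317, 0.321 and 0.159). They also did between the IR groups (0.316, 0.166 and 0.383). The other 2 comparisons did not meet this rule for every pair. Their values were 0.299, 0.127 and 0.089 for C57-IR against C57-non-IR and 0.337, 0.055 and 0.114 for Slit2-non-IR against C57-non-IR. The replicate 1 libraries therefore deviated together in these comparisons too, where differently numbered pairings with them reached at most -0.200 and -0.154. For replicates 2 and 3 a differently numbered pairing was higher. The labels name no shared batch.

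The members and lists were chosen with earlier results of these data known. Besides the 9 members, genes were named when they were in a pathway list and passed the adjusted threshold in any contrast, or had one of the 2 smallest p-values of their list for the mean IR effect, or were named as pseudogene copies, or were most like a member across libraries. Alternatives were a pseudocount of 0.1, a filter of 1 read only or of 10 reads in every library, scaling to reads outside the mitochondrial genome, limma-voom on recovered reads, a replicate block, a robust prior, only the 6 libraries compared, and each library left out in turn. Tested on simulated data for C57-IR against C57-non-IR with 15240 genes, the fit recovered 200 of 200 genes changed 4-fold, with 12 false calls. In the simulation all genes had a common spread setting and libraries shared no deviations, unlike the measured data. The check does not cover those features. Recovery of changes smaller than 4-fold, such as the differences fitted for the 9 members, was not tested. Hairpins were searched in GENCODE M21 transcripts, in which 8 of the 9 members had the same start and end as in the files. Python 3.11.15, pandas 2.3.3, scipy 1.17.1 and matplotlib 3.10.9 were used.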

Additional observations from a re-analysis of the deposited data

Results flagged for a closer look

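Trp53 was marked because its IR difference differed between the genotypes by a test of the difference itself before adjustment. The interaction of IR and genotype was 0.61 on the log2(FPKM + 1) scale, with Slit2-Tg hearts higher after IR in 3 of 3 libraries and C57BL/6J hearts overlapping (limma unadjusted p = 0.0023, Benjamini-Hochberg adjusted p = 0.9998). It did not pass the adjusted threshold, and 284 of 15240 genes had an unadjusted p under 0.05 for the interaction.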

How the results depend on the processing

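None of the 9 genes had an adjusted p under 0.05 in any of the 7 comparisons under any alternative. For the mean IR effect, Aco1 turned to -0.070 with values scaled to reads outside the mitochondrial genome, and leaving out 1 library in turn moved the mean IR difference from -0.032 to 0.045 for Fth1, from -0.10 to 0.0027 for Gpx4 and from -0.040 to 0.078 for Aco1. Over the 7 comparisons, 38 of the 63 differences (9 genes in each) changed sign under at least 1 alternative, among them Ftl1 (-0.0035 to 0.37) and Slc11a2 (-0.0095 to 0.16) between Slit2-IR and Slit2-non-IR hearts. The counts of genes past the adjusted threshold moved more. For C57-IR against C57-non-IR, 70 genes became 7 with no filter beyond 1 read, 40 scaled outside the mitochondrial genome, 32 with limma-voom and 9 in the 6 libraries compared. For Slit2-IR against Slit2-non-IR, 80 became 19, 50 and 121 under the first 3 of these. The mean IR count of 532 became 299 with no filter. For Slit2-non-IR against C57-non-IR, 6 became 10 with a pseudocount of 0.1, 11 with no filter and 3 with 10 reads in every library. That filter gave 3 in place of 7 for Slit2-IR against C57-IR (4 in the 6 libraries compared) and 8 in place of 20 for the mean Slit2-Tg effect. The interaction had 4 genes with no filter. With a replicate block (the number as a term in the fit) the counts were 174, 202 and 773 for IR in C57BL/6J, in Slit2-Tg and as the mean, and 2 for Slit2-non-IR against C57-non-IR, and the block changed the call of none of the 9 genes and of none of Sat1, Ptgs2, Bmp2 and Trp53.

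Leaving out 1 library gave 3 to 254 genes for C57-IR against C57-non-IR (254 without C57-IR replicate 1), 4 to 180 for Slit2-IR against Slit2-non-IR, 329 to 713 for the mean IR effect, 1 to 14 and 4 to 12 for Slit2-Tg without and with IR, 12 to 30 for the mean Slit2-Tg effect and 0 to 1 for the interaction. The Fth1 to Ftl1 difference ran from -2.76 to -0.947. The mean IR count moved by over 1.5 times without C57-non-IR replicate 2 or 3 (329 each), C57-IR replicate 2 (336) or Slit2-non-IR replicate 2 (343). The 9 genes had 225 or more reads in every library. The cause of the other movements was not tested.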

Other observations

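Hamp, which encodes hepcidin, the hormone that removes ferroportin from the cell surface, was listed at 44.6 FPKM (371 reads) in Slit2-IR replicate 1 and at 0 to 3.83 FPKM (at most 31 reads) in the other 11 libraries. The gene did not pass the filter on low values and was not tested. In the same libraries the atrial light chain Myl7 was at 1049 FPKM in Slit2-IR replicate 1 and at 108 in C57-IR replicate 2, the library with the next highest Hamp, and at 12.5 or less elsewhere.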
